A study of Mus musculus with 14 samples.

Results

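The macrophage identity and activation genes were described here in whole-kidney RNA. They are 10 genes chosen by name (Adgre1, Csf1r, Cd68, Lyz2, Fcgr3, Mrc1, Chil3, Arg1, Trem2 and Gpnmb) among the 23682 genes listed in both deposited tables, and all 10 passed the filter on low counts. Chil3 and Arg1, with at most 6.02 and 7.42 normalised reads in controls, passed it through the i-TERTci libraries. The series asked what a WIP1 inhibitor changes in a mouse model of collapsing glomerulopathy, a kidney disease with proteinuria. The control group held 4 mice with the actin-rtTA transgene alone, given doxycycline for 30 days. Their treatment label names doxycycline and no injection, while the general protocol says that they were treated as the i-TERTci mice were. The DMSO group held 5 i-TERTci mice (actin-rtTA+;TetOp-TERTci+), given doxycycline for 29 to 38 days with daily intraperitoneal DMSO, the vehicle. The GSK2830371 group held 5 i-TERTci mice given doxycycline for 28 to 49 days with daily intraperitoneal GSK2830371, an inhibitor of the phosphatase WIP1. Per the labels, injections began at about 15 days, when protein in the urine was above 10 mg/mL. All mice were on doxycycline and all carried actin-rtTA. In i-TERTci mice, which were heterozygous for each transgene, this activator drives TERTci (a form of the telomerase reverse transcriptase) throughout the body rather than in 1 kidney cell type. If the controls were not injected, transgene and injection cannot be told apart in a comparison with them.

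Macrophages are phagocytes that live in every tissue. The kidney holds resident macrophages, and monocytes from the blood enter it after injury and can turn into macrophages. Survival of the lineage depends on the receptor CSF1R and its ligands CSF1 and IL-34. Interleukin-4 and interleukin-13 induce an alternative programme marked in mice by Mrc1, Chil3 and Arg1, and Trem2 and Gpnmb mark lipid-laden and phagocytic macrophages. Several of these genes are also used by other cells: Lyz2, Fcgr3 and Chil3 are strongly transcribed in mouse neutrophils or their precursors.

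Lyz2 and Chil3, of which Lyz2 had the highest level in i-TERTci kidneys and Chil3 the largest fold, each have a close paralog next to them, Lyz1 and Chil4, with few reads in every library. Lyz1 had 0 to 9.90 normalised reads in the 14 libraries and Chil4 had 0 to 4.84, and neither passed the filter for testing. The sequences just upstream of the start of each gene, from RefSeq (GRCm38.p6, all on the minus strand), are shown because they let the members of each pair be set side by side. Capitals mark ACTTCCT, the reverse complement of AGGAAGT, the core of the site bound by PU.1, the transcription factor that specifies myeloid cells.
Lyz2, chr10:117282322-117282522: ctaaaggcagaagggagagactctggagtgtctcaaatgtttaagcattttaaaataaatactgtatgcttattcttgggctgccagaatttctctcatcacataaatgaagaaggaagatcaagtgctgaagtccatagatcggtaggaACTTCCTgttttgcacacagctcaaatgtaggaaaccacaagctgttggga
Lyz1, chr10:117292869-117293118: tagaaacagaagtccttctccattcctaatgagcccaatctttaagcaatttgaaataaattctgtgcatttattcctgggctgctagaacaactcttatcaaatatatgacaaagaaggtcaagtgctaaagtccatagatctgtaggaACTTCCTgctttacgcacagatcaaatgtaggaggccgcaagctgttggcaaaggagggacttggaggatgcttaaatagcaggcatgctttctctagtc
Chil3, chr3:106167565-106167814: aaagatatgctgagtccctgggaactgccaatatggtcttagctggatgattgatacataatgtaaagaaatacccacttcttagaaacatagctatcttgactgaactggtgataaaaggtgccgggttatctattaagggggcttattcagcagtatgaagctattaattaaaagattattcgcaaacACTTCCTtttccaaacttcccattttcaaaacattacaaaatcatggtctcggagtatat
Chil4, chr3:106219508-106219729: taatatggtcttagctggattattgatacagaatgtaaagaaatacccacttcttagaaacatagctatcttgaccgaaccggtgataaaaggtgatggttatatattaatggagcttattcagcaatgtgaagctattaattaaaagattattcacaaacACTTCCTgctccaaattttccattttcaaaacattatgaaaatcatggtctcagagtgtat
Aligned, 151 of 199 bases were identical between Lyz2 and Lyz1 (75.9%) and 201 of 221 between Chil3 and Chil4 (91%). The same 7 bases stood once in each of the 4 windows, although Lyz1 and Chil4 were at or near 0 in kidneys that held at least 1997 normalised reads of Lyz2 and 101 of Chil3. In the 250 bases before the start, AGGAAGT was found on either strand in 2109 of the 27025 genes of the promoter table (7.8%). Of the 7 members in that table it was found in Lyz2, Mrc1 and Chil3, and not in Cd68, Fcgr3, Trem2 or Gpnmb. The AP-1 motif TGANTCA, held by 6.87% of all windows, was found in Cd68 and Trem2. The STAT6 motif, TTC and GAA with any 4 bases between them (5.86% of windows), and the E-box CACGTG (6.05%) were found in no member. Adgre1, Csf1r and Arg1 are not in the promoter table. Such matches describe letters, not bound sites.

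The libraries held 47196007 to 64582234 reads in genes, and each value below is a read count divided by 1 size factor per library (0.827 to 1.21). The labels do not give sex. By Xist (over 1000 reads), all 4 controls, 2 of 5 DMSO mice (2 and 5) and 3 of 5 GSK2830371 mice (2, 3 and 4) were taken as female. These female GSK2830371 mice were all at 49 days, and mice 1 and 5 of that arm were at 31 and 28 days. In that arm the females and the mice at 31 days or fewer do not overlap, so sex and days on doxycycline cannot be told apart. Mitochondrial reads made up 14.4% to 24.2% of reads in controls, 4.95% to 9.52% in the DMSO group and 5.07% to 8.35% in the GSK2830371 group, and their part in the results was not tested. Nothing in the labels says more of the replicates than that they are separate mice. Changes are log2 differences of the normalised read count plus 1, tested with limma across 18810 genes, and a gene was called at an adjusted p under 0.05. In bulk RNA, more cells of a type and more RNA per cell cannot be told apart.

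Kidneys of i-TERTci mice held more RNA of Lyz2, Fcgr3, Mrc1, Chil3 and Gpnmb than control kidneys in both arms. Csf1r was below every control in both arms. The limma fit over all libraries called it lower in the DMSO arm alone, and that call was lost in several repeats. Against control, these 5 of the 10 genes rose with DMSO, Csf1r fell, and Adgre1, Cd68, Trem2 and Arg1 did not pass. Over all genes tested, 48.3% were called in that comparison, 25.2% higher and 23.1% lower. With GSK2830371, 6 of 10 rose, the same 5 and Trem2, and none fell, beside 46.3% of all genes called, 24.3% higher and 22.1% lower. The median log2 change of the 10 genes was 1.71 with DMSO and 2.02 with GSK2830371, and that of all genes tested was 0.0264 and 0.0112. The libraries of the groups did not overlap for 5 of 10 genes with DMSO, 4 of them higher, beside 38.8% of all genes (20.0% higher, 18.8% lower). They did not overlap for 7 of 10 with GSK2830371, 6 of them higher, beside 40.3% of all genes (20.8% higher, 19.6% lower). These comparisons share the 4 control libraries. The 5 genes that rose in both passed in each of the 13 alternative analyses and each of the 14 repeats without 1 library.

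**Figure D1:**
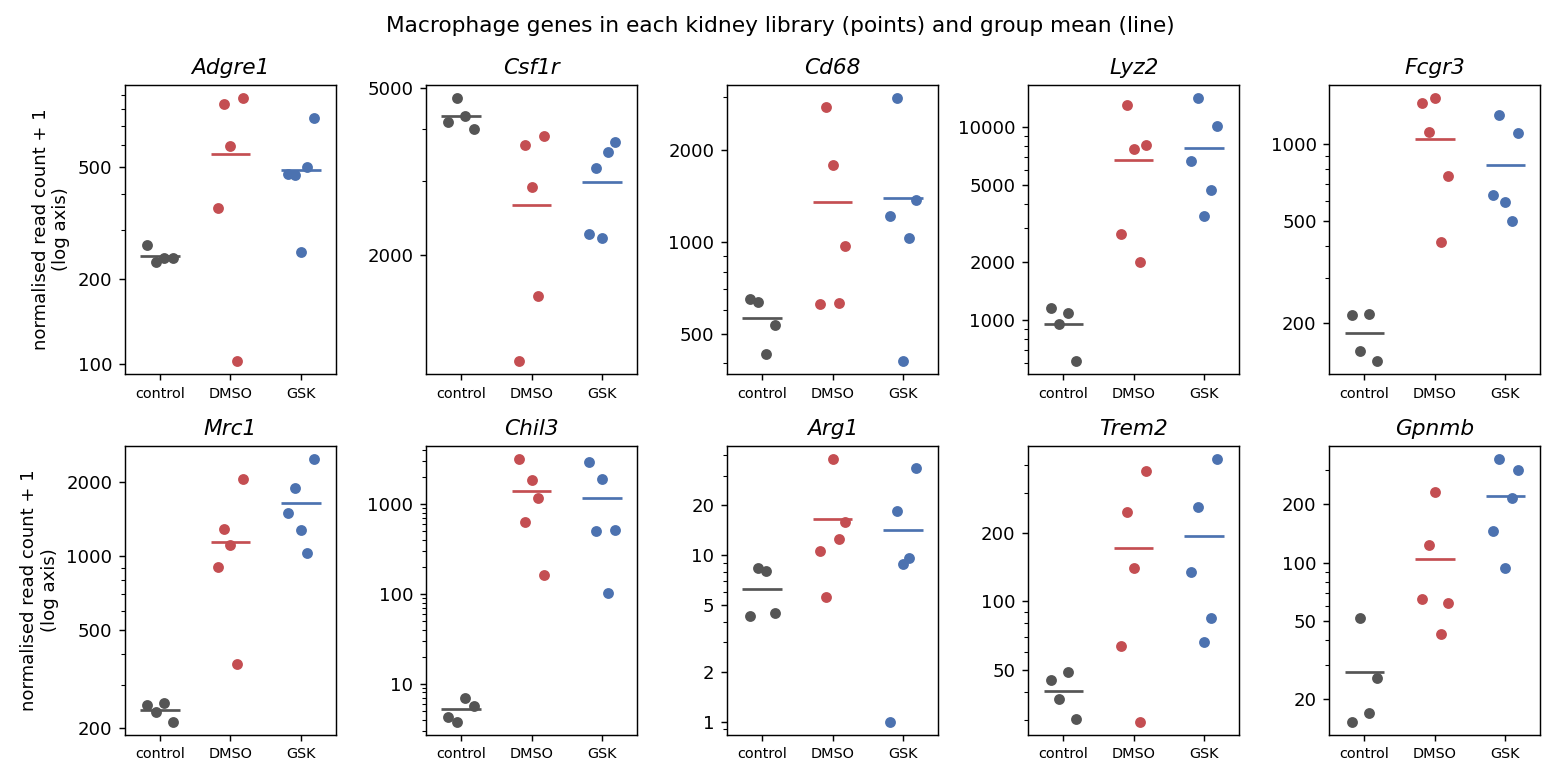
Normalised read count plus 1 (log axis) of each of the 10 genes in every library (points) with the group mean (line), for 4 control, 5 DMSO and 5 GSK2830371 (GSK) kidneys. Chil3 lay between 2.78 and 6.02 reads in controls and between 101 and 3172 in i-TERTci kidneys, while Csf1r was higher in the 4 controls than in each of the 10 others.

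Adgre1 (chr17:57358691-57483527, GRCm38) encodes F4/80, the surface receptor by which mouse macrophages are most often recognised. Its normalised counts were 263, 229, 237 and 237 in the controls. The DMSO libraries held 358, 835, 593, 101 and 877, and the GSK2830371 libraries 471, 466, 248, 500 and 744. DMSO mouse 4, at 38 days on doxycycline and not taken as female, was below every control and the other 4 above. GSK2830371 mouse 3 lay among the controls. Adgre1 changed by 0.85 on the log2 scale (SE 0.50) with DMSO (limma adjusted p = 0.172) and 0.93 (SE 0.50) with GSK2830371 (limma adjusted p = 0.142), so neither passed. Without DMSO mouse 4 the change with DMSO was 1.38 (limma adjusted p = 0.00258), and that with GSK2830371 passed as well (limma adjusted p = 0.0184). Adgre1 also passed with DMSO in edgeR (1.20, adjusted p = 0.0423), in DESeq2 (adjusted p = 0.0166), among libraries at 31 days or fewer (limma adjusted p = 0.00161) and among females (1.83, limma adjusted p = 0.00113). With GSK2830371 it passed in DESeq2 (adjusted p = 0.0479), at 31 days or fewer (1.31, limma adjusted p = 0.0096), among females (0.70, limma adjusted p = 0.0383) and in a fit of those groups alone (limma adjusted p = 0.00973).

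Csf1r (chr18:61100598-61132149) encodes the receptor for CSF1 and IL-34 and went the other way. Control kidneys held 4143, 4727, 4282 and 3988 normalised reads. With DMSO the values were 1120, 3665, 2905, 1602 and 3836, and with GSK2830371 2246, 3223, 2194, 3518 and 3724. All 10 i-TERTci libraries were below all 4 controls, with DMSO mice 1 and 4 lowest. On the log2 scale Csf1r changed by -0.86 (SE 0.31) with DMSO, a fold of 0.552 (limma adjusted p = 0.0327), and -0.56 (SE 0.31) with GSK2830371, which did not pass (limma adjusted p = 0.154). The call with DMSO was lost without any 1 of the 4 controls (limma adjusted p = 0.0539 to 0.0785) and without DMSO mouse 1 (-0.59, limma adjusted p = 0.0673) or mouse 4 (-0.72, limma adjusted p = 0.0769). It was also lost in a fit of those groups alone (-0.85, limma adjusted p = 0.0527), with the authors' scaling (-0.85, limma adjusted p = 0.0525), in edgeR (-0.70, adjusted p = 0.0653), among libraries at 31 days or fewer (-0.72, limma adjusted p = 0.103) and with sex as a covariate (-0.52, limma adjusted p = 0.221). Among females the change was -0.18 (limma adjusted p = 0.52). With GSK2830371 it was called among females (-0.53, limma adjusted p = 0.0356) in a fit of those groups alone (limma adjusted p = 0.0253) and with the authors' scaling (limma adjusted p = 0.0256). The 3′ end of Csf1r overlaps the opposite-strand gene Hmgxb3 over 873 of its 5774 exon bases (15.1%), and with the strand setting not given in the sources used here, reads there may belong to either gene. Hmgxb3 held 1948 to 2365 normalised reads in controls, 1415 to 2057 with DMSO and 1045 to 1638 with GSK2830371.

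Cd68 (chr11:69664213-69666153) encodes a lysosomal membrane protein of phagocytes. It held 650, 635, 427 and 533 normalised reads in controls, 628, 2768, 1791, 630 and 973 with DMSO, and 1221, 2971, 406, 1030 and 1370 with GSK2830371. DMSO mice 1 and 4 and GSK2830371 mouse 3 lay among or below the controls. Its log2 change was 1.04 (SE 0.51) with DMSO (limma adjusted p = 0.107) and 1.06 (SE 0.51) with GSK2830371 (limma adjusted p = 0.102). Neither passed, although DESeq2 called both (adjusted p = 0.0196 and 0.0164), and the DMSO change passed at 31 days or fewer (limma adjusted p = 0.0193) and the GSK2830371 change without mouse 3 (1.44, limma adjusted p = 0.0178).

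Lyz2 (chr10:117277331-117282321), the lysozyme of mouse macrophages, monocytes and neutrophils, rose in both arms. Its normalised counts were 1155, 954, 1093 and 614 in controls. They were 2802, 13058, 7704, 1997 and 8142 with DMSO, and 6696, 14170, 3488, 4722 and 10172 with GSK2830371. Every i-TERTci library was above every control, and within them the values spanned from 1997 to 14170. The log2 change was 2.54 (SE 0.52), a fold of 5.82, with DMSO (limma adjusted p = 0.00135) and 2.90 (SE 0.52), a fold of 7.46, with GSK2830371 (limma adjusted p = 0.000592). Lyz2 and Lyz1 transcripts share 195 of 1267 windows of 50 bases (15.4%), so that a part of their reads cannot be assigned by sequence.

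Fcgr3 (chr1:171051174-171064935) encodes a low-affinity activating receptor for IgG. The controls held 214, 154, 216 and 141 normalised reads, the DMSO libraries 1449, 1118, 1514, 414 and 747, and the GSK2830371 libraries 631, 1303, 592, 500 and 1102. No i-TERTci library overlapped the controls. Fcgr3 rose on the log2 scale by 2.40 (SE 0.37), a fold of 5.29, with DMSO (limma adjusted p = 0.000106) and 2.10 (SE 0.37), a fold of 4.30, with GSK2830371 (limma adjusted p = 0.000336). Among 5 other Fc receptor and receptor chain genes, 1 rose in each arm: Fcgr4, another activating receptor, by 1.58 (SE 0.36) with DMSO (limma adjusted p = 0.00216) and by 1.18 (SE 0.36) with GSK2830371 (limma adjusted p = 0.0142). The latter call was lost without control mouse 4 (0.87, limma adjusted p = 0.063) and at 31 days or fewer (1.20, limma adjusted p = 0.0689). Fcgr1, the high-affinity receptor, changed by 1.05 (limma adjusted p = 0.0625) and 0.28 (limma adjusted p = 0.626), and the former passed in 9 alternatives, among them edgeR (adjusted p = 0.0368), DESeq2 (adjusted p = 0.0142) and without DMSO mouse 1 or 4 (limma adjusted p = 0.0223 and 0.0404). Fcgr3 shares 0 of its 1733 windows of 50 bases with Fcgr4 and 166 (9.58%) with the inhibitory receptor Fcgr2b.

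Mrc1 (chr2:14229392-14332057) encodes the mannose receptor CD206, which takes up mannose-bearing glycoproteins. Its normalised counts were 249, 232, 254 and 212 in controls, 906, 1287, 1111, 365 and 2063 with DMSO, and 1496, 1901, 1279, 1033 and 2490 with GSK2830371. All 10 i-TERTci libraries exceeded all controls, and DMSO mouse 4 came closest to them. The log2 change was 2.07 (SE 0.37), a fold of 4.20, with DMSO (limma adjusted p = 0.00042) and 2.72 (SE 0.37), a fold of 6.60, with GSK2830371 (limma adjusted p = 5.59e-05).

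Chil3 (chr3:106147554-106167564) encodes Ym1, a secreted chitinase-like protein, and had the largest log2 change of the 10 genes in both arms. Control kidneys held 3.30, 2.78, 6.02 and 4.71 normalised reads, so that Chil3 had little room to be called lower. The DMSO libraries held 3172, 628, 1859, 1163 and 161, and the GSK2830371 libraries 2895, 496, 1881, 101 and 508. The lowest i-TERTci library was far above the highest control, and values within each arm differed by more than those between the arms. Chil3 rose on the log2 scale by 7.53 (SE 0.92) with DMSO (limma adjusted p = 3.15e-05) and 7.06 (SE 0.92) with GSK2830371 (limma adjusted p = 5.75e-05). Chil3 and Chil4 share 275 of 1629 windows of 50 bases (16.9%).

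Arg1 (chr10:24915221-24927484) encodes arginase 1, which splits arginine to ornithine and urea, and remained at the low end of the counts. It held 3.30, 7.42, 7.02 and 3.53 normalised reads in controls, 9.67, 4.58, 37.1, 11.6 and 14.9 with DMSO, and 0, 17.4, 7.89, 8.66 and 32.5 with GSK2830371. The groups overlapped, and the log2 change was 1.17 (SE 0.80) with DMSO (limma adjusted p = 0.241) and 0.55 (SE 0.80) with GSK2830371 (limma adjusted p = 0.598). The 95% intervals ran from -0.53 to 2.87 and from -1.15 to 2.25. Its mitochondrial paralog Arg2, which the kidney itself transcribes, rose by 1.60 (SE 0.43) with DMSO (limma adjusted p = 0.00741) and by 1.52 (SE 0.43) with GSK2830371 (limma adjusted p = 0.0101). With sex as a covariate the DMSO change of Arg2 was 1.27 (limma adjusted p = 0.0539), and among females 1.15 (limma adjusted p = 0.114). Of 6 other genes of arginine handling, Arg2 among them, 1 rose and 3 fell with DMSO, and 1 rose and 2 fell with GSK2830371. Ass1, which makes argininosuccinate and is abundant in proximal tubule, fell by 1.68 and by 1.61 (limma adjusted p = 0.000815 and 0.00121).

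Trem2 (chr17:48346401-48354147) encodes a lipid-sensing receptor of macrophages. Its normalised counts were 44.0, 36.2, 48.1 and 29.4 in controls, 62.9, 246, 139, 28.5 and 375 with DMSO, and 134, 259, 65.1, 83.1 and 423 with GSK2830371. DMSO mouse 4 was below every control, whereas all 5 GSK2830371 libraries were above. The log2 change was 1.59 (SE 0.67) with DMSO, which did not pass (limma adjusted p = 0.0619), and 1.94 (SE 0.67), a fold of 3.84, with GSK2830371 (limma adjusted p = 0.0272). The change with DMSO passed without DMSO mouse 1 (limma adjusted p = 0.0482), DMSO mouse 4 (2.09, limma adjusted p = 0.0099) or GSK2830371 mouse 5 (limma adjusted p = 0.0486). It passed among females (2.94, limma adjusted p = 0.00202), at 31 days or fewer (limma adjusted p = 0.0059), in edgeR (2.11, adjusted p = 0.0213) and in DESeq2 (adjusted p = 0.00207). The call with GSK2830371 was lost without control mouse 1, 2 or 4 (limma adjusted p = 0.0503 to 0.0702) and without GSK2830371 mouse 2 (1.75, limma adjusted p = 0.0615) or mouse 5 (1.58, limma adjusted p = 0.067).

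Gpnmb (chr6:49036546-49070929) encodes a glycoprotein of lysosome-rich macrophages. Controls held 14.3, 51.0, 16.0 and 24.7 normalised reads, the DMSO libraries 64.1, 123, 228, 42.3 and 61.3, and the GSK2830371 libraries 144, 340, 92.7, 214 and 299. DMSO mouse 4 overlapped control mouse 2, and no GSK2830371 library overlapped a control. Gpnmb rose on the log2 scale by 1.84 (SE 0.51), a fold of 3.58, with DMSO (limma adjusted p = 0.00802) and 3.02 (SE 0.51), a fold of 8.12, with GSK2830371 (limma adjusted p = 0.000262).

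**Figure D2:**
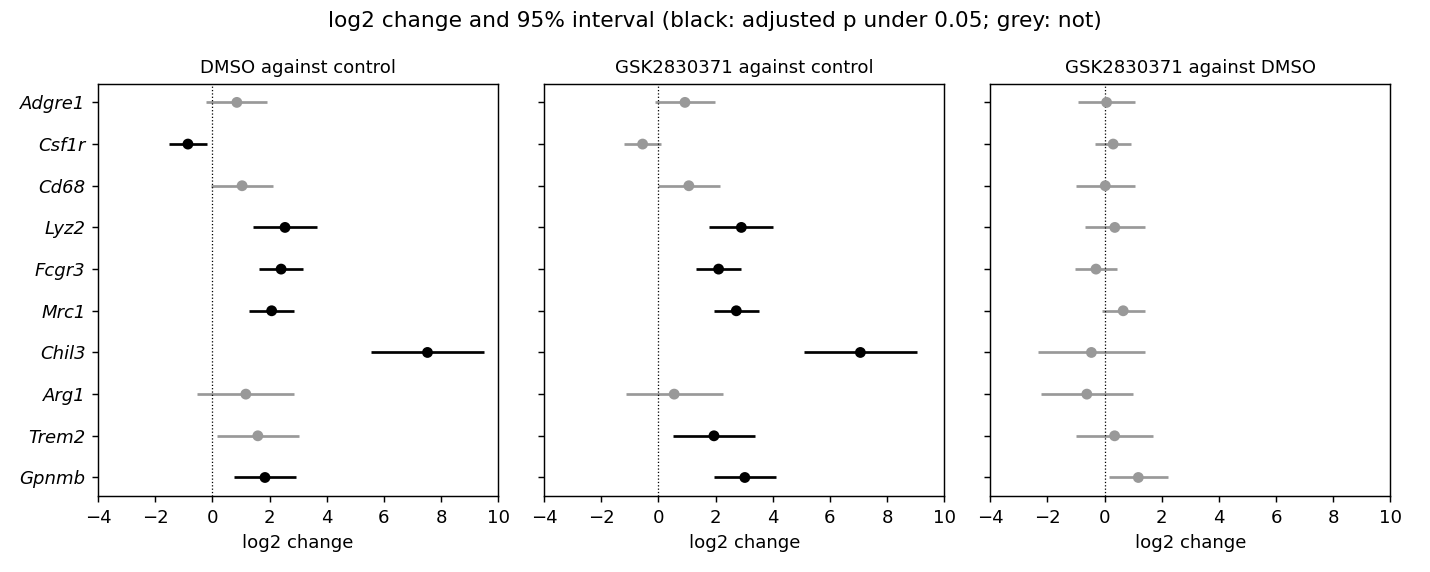
Log2 change of each gene with its 95% interval in the comparisons of DMSO with control, GSK2830371 with control and GSK2830371 with DMSO (black where the limma adjusted p was under 0.05). Chil3 lay at 7.53 and 7.06 against control, Csf1r at -0.86 and -0.56, and no gene is black in the panel on the right.

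Between the i-TERTci arms, no macrophage gene differed by the adjusted test, and neither did any other gene: limma called 0 of 18810 genes (0.00%), with 800 genes and 1 member at an unadjusted p under 0.05. The member was Gpnmb, with a mean of 218 ± 103 normalised reads (SD, n = 5) with GSK2830371 and 104 ± 75.8 (SD, n = 5) with DMSO. Its log2 difference was 1.18 (95% interval 0.16 to 2.21, limma adjusted p = 0.994), and the GSK2830371 libraries with 340 and 299 reads stood above the DMSO maximum of 228. For Mrc1 the difference was 0.65 (-0.10 to 1.40). The interval for Csf1r ran from -0.32 to 0.92, that for Fcgr3 from -1.03 to 0.43, that for Lyz2 from -0.70 to 1.42 and that for Chil3 from -2.33 to 1.41. Differences of up to about these bounds are not excluded by the data. DESeq2 called 1 gene over all, Il1b, the gene for interleukin-1 beta, which is made by activated macrophages and neutrophils. Il1b held 468, 44.0, 83.4, 314 and 137 normalised reads with DMSO, 11.3, 8.71, 27.6, 29.4 and 13.4 with GSK2830371, and 27.5, 6.49, 10.0 and 17.7 in controls. The arms did not overlap for Il1b, which was lower with GSK2830371. They did not overlap for 0.484% of all genes (0.239% higher, 0.245% lower) and for 0 of the 10 macrophage genes. The log2 difference was -3.13 (SE 0.59, limma adjusted p = 0.994), and -3.53 in DESeq2 (adjusted p = 1.48e-05). In edgeR, which called 0 genes, it did not pass.

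Compared per kilobase of the principal transcript, the order of the 10 genes differed between control and i-TERTci kidneys. In controls Csf1r stood at the top with a mean of 912 normalised reads per kilobase, followed by Lyz2 (725), Cd68 (457), Fcgr3 (135), Adgre1 (74.5), Mrc1 (44.0), Trem2 (36.2), Gpnmb (7.17), Arg1 (3.60) and Chil3 (2.73). The ranges of neighbours in this order overlapped except between Cd68 and Fcgr3, Fcgr3 and Adgre1, Adgre1 and Mrc1, and Trem2 and Gpnmb. In the DMSO group Lyz2 led at 5122 per kilobase, then Cd68 (1104), Chil3 (907), Fcgr3 (778) and Csf1r (559), and all neighbours overlapped. In the GSK2830371 group the means per kilobase were 5965 for Lyz2, 1138 for Cd68, 765 for Chil3, 634 for Csf1r and 613 for Fcgr3, and only Lyz2 and Cd68, and Gpnmb and Arg1, did not overlap as neighbours. Arg1 stood last in both arms, at 10.5 and 9.01.

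Relative to Adgre1 in the same library, a ratio in which the scaling of libraries cancels, the genes did not move as a block. Csf1r had 15.8 to 20.6 reads for each read of Adgre1 in controls, 3.13 to 15.8 with DMSO (median 4.39) and 4.77 to 8.83 with GSK2830371 (median 6.91). DMSO mouse 4 alone reached the control range. Lyz2 had 2.6 to 4.62 reads per Adgre1 read in controls, 7.83 to 19.7 with DMSO and 9.45 to 30.4 with GSK2830371. Mrc1 had 0.896 to 1.07, 1.54 to 3.59 and 2.07 to 5.15. For Lyz2 and Mrc1 no i-TERTci library overlapped the controls. These ratios are given as a description, with no test.

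**Figure D3:**
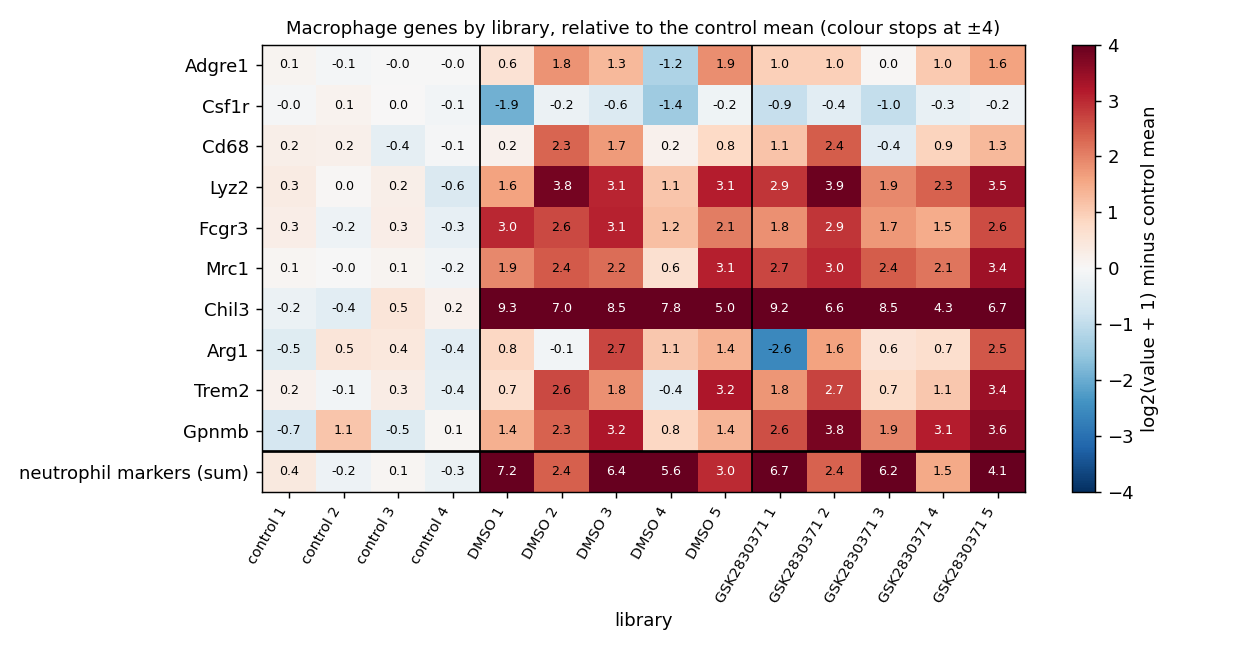
Log2 of the normalised read count plus 1 minus the mean of the 4 controls for each gene (rows) in every library (columns), with the summed level of 14 neutrophil markers in the bottom row; colour stops at 4 in either direction and the numbers give the value. Csf1r is below the control mean in all 10 i-TERTci libraries, and DMSO mouse 4 is below it for Adgre1, Csf1r and Trem2.

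Across the 10 i-TERTci libraries, with the mean of each arm removed, some of these genes went up and down together. Pearson's r of the log2 values was 0.94 for Mrc1 and Trem2, 0.91 for Lyz2 and Trem2, 0.89 for Adgre1 and Mrc1, and 0.89 for Cd68 and Lyz2. Chil3 ran apart, with r between -0.72 (Csf1r) and 0.21 (Fcgr3). Within the DMSO arm the females, mice 2 and 5, were above mice 1, 3 and 4 for Adgre1, Csf1r, Lyz2, Mrc1 and Trem2. For Chil3 the females were below them. Cd68, Fcgr3, Arg1 and Gpnmb were not split in this way. In the GSK2830371 arm, mice 2, 3 and 4 overlapped mice 1 and 5 for all 10 genes. The part of sex was not tested. Among all tested genes, the closest to Trem2 were Hlcs (r = 0.97), Igfbp2 (0.968) and Pltp (0.968). For Adgre1 they were Plppr3 (0.982), Cped1 and Cntln, for Csf1r Ppfia4 (0.988), Adcy7 and Igdcc4, for Cd68 Colgalt1 (0.986), Col11a1 and C1qtnf6, and for Lyz2 Rac3 (0.983), Cnrip1 and Mxra8. Fcgr3 lay nearest to Gpr108 (0.958), Mrc1 to Zap70 (0.968), Chil3 to Sec11a (0.967), Gpnmb to Celf4 (0.96) and Arg1 to Zfp617 (0.92). The points are 10 whole kidneys of similar depth, and these genes were taken as the highest of 18810, so the values are a description.

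The genes around these receptors were called at about the rate of all genes. Of 10 CSF1R ligands and lineage transcription factors, 3 rose and 2 fell with DMSO, and 2 rose and 3 fell with GSK2830371. Over all genes, 25.2% rose and 23.1% fell with DMSO, and 24.3% and 22.1% with GSK2830371. Those shares are the background for each gene list here. The ligand gene Csf1 held 1073 ± 192 normalised reads in controls (SD, n = 4) and 2858 ± 1541 with DMSO (SD, n = 5). It rose by 1.26 with DMSO (SE 0.35, limma adjusted p = 0.00881), and its change with GSK2830371 was 0.54 (limma adjusted p = 0.22). Maf, a transcription factor of macrophages that kidney epithelium also carries, fell by 1.45 and by 1.01 (limma adjusted p = 6.85e-05 and 0.00122). Irf8, a factor of monocytes and dendritic cells, changed by 0.14 with DMSO (limma adjusted p = 0.56) and fell by 0.50 with GSK2830371 (limma adjusted p = 0.0362). The call of Irf8 was lost without control mouse 1 or 2 or GSK2830371 mouse 3 or 5 (limma adjusted p = 0.058 to 0.14), among females (limma adjusted p = 0.0851) and at 31 days or fewer (limma adjusted p = 0.158). Il34 and Spi1, the gene for PU.1, were singled out after their values were seen. Il34 rose by 2.91 with DMSO and by 1.90 with GSK2830371 (limma adjusted p = 0.000906 and 0.0136), the latter lost among females (1.46, limma adjusted p = 0.0503). Spi1 changed by -0.18 and -0.34 (limma adjusted p = 0.562 and 0.267), with all groups between 244 and 620 normalised reads.

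Genes high in resident macrophages were split. Of 12 tested, 5 rose and 2 fell in each arm. C1qa, a subunit of complement C1q, rose by 2.07 (SE 0.51) with DMSO and by 2.10 (SE 0.51) with GSK2830371 (limma adjusted p = 0.00456 and 0.00452). Cd163, the haemoglobin scavenger receptor, held 10.6 to 23.1 normalised reads in controls, 12.7 to 284 with DMSO and 113 to 283 with GSK2830371. It rose by 1.89 with DMSO (limma adjusted p = 0.0437) and by 3.48 (SE 0.73) with GSK2830371 (limma adjusted p = 0.00142). The call of Cd163 with DMSO was lost without any 1 control, without DMSO mouse 2, 3 or 5 and without GSK2830371 mouse 3, 4 or 5 (1.34 to 2.07, limma adjusted p = 0.0501 to 0.107). It was also lost in voom (adjusted p = 0.0791), in a fit of those groups alone (limma adjusted p = 0.0803), with the authors' scaling (limma adjusted p = 0.0797) and with sex as a covariate (limma adjusted p = 0.0511). Cd81, a tetraspanin found in many kidney cells, fell by 0.88 and by 0.63 (limma adjusted p = 0.000851 and 0.00898), the latter lost among females (-0.46, limma adjusted p = 0.0889). The other gene that fell, named here after its values were seen, was Folr2. It held 78.9 to 166 normalised reads in controls, 20.4 to 78.7 with DMSO and 15.8 to 102 with GSK2830371. Its changes were -1.79 and -1.59 (limma adjusted p = 0.00889 and 0.0182), and they were not followed through the alternatives.

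Among 9 genes of recruited monocytes, 5 rose and 1 fell with DMSO, and 3 rose and 1 fell with GSK2830371. F13a1, the coagulation factor XIII A chain of monocytes and macrophages, held 26.4, 10.2, 33.1 and 30.6 normalised reads in controls, 443, 255, 550, 161 and 212 with DMSO, and 781, 606, 510, 311 and 653 with GSK2830371. It rose by 3.61 (SE 0.41) and by 4.51 (SE 0.41), with limma adjusted p = 7.38e-06 and 1.01e-06. Ccr2, the chemokine receptor by which monocytes leave the bone marrow, changed by 0.77 and 0.36 (limma adjusted p = 0.249 and 0.608).

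Of 12 TREM2 partners and genes of lipid-laden macrophages, 7 rose and 1 fell with DMSO, and 8 rose and 1 fell with GSK2830371. Tyrobp, the adaptor DAP12 through which TREM2 signals, rose by 1.75 (SE 0.36) and by 1.46 (SE 0.36), with limma adjusted p = 0.000971 and 0.0038. Spp1 (osteopontin) and Cd9 rose in both arms as well, Spp1 by 3.47 with GSK2830371 (limma adjusted p = 6.24e-05) and Cd9 by 1.87 with DMSO (limma adjusted p = 6.35e-05). Both are also made by kidney epithelium, and Spp1 held 45756 normalised reads in the control mean. The lysosome list gave 8 of 14 higher and 3 lower in each arm, among them Hexa, a subunit of beta-hexosaminidase, with 1.71 and 1.96 (limma adjusted p = 2.96e-06 and 9.31e-07). Lamp1 changed by 0.61 and 0.73 (limma adjusted p = 0.0243 and 0.00969), and the former call was lost without control mouse 1 or 3 (limma adjusted p = 0.0842 and 0.0616), among females (limma adjusted p = 0.137) and with sex as a covariate (limma adjusted p = 0.0779). At 31 days or fewer neither Lamp1 call held (limma adjusted p = 0.066 and 0.0716). Lamp1 held 49658 to 75515 normalised reads in controls, and whole-kidney RNA does not tell which cells hold the lysosome transcripts.

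Genes of the activation programmes moved in both directions. Of 8 alternative activation genes tested, 2 rose and 0 fell with DMSO, and 4 rose and 1 fell with GSK2830371. Msr1, the class A scavenger receptor, rose most, from 34.2 ± 7.30 normalised reads in controls (SD, n = 4) to 391 ± 186 with DMSO (SD, n = 5) and 288 ± 143 with GSK2830371 (SD, n = 5). Its changes were 3.36 (SE 0.39) and 2.91 (SE 0.39), with limma adjusted p = 9.37e-06 and 3.51e-05. Retnla, an interleukin-4 target in mouse macrophages, held 4.64 to 6.60 normalised reads in controls and 0 to 1.66 with DMSO, and was not tested. With GSK2830371, Retnla was at 24.2 in mouse 4 and at 0 to 0.968 in the others. Of 9 classical activation genes, 6 rose and 2 fell with DMSO, and 1 rose and 3 fell with GSK2830371. The 6 that rose with DMSO, named here after their values were seen, were the cytokine genes Tnf (1.51, limma adjusted p = 0.0187) and Il1b (3.38, limma adjusted p = 0.000468), the costimulatory genes Cd80 (1.73, limma adjusted p = 0.00519) and Cd86 (1.41, limma adjusted p = 0.00149), the chemokine gene Cxcl10 (1.78, limma adjusted p = 0.0129) and Ptgs2 (2.04, limma adjusted p = 0.0124). With GSK2830371, Cd86 rose (1.19, limma adjusted p = 0.00489). The calls of these 6 genes against control were not followed through the alternatives. Nos2, which makes nitric oxide, fell by 1.41 and by 2.08 (limma adjusted p = 0.00854 and 0.000628). Irf5, a regulator of inflammatory genes, fell as well (-1.69 and -1.79, limma adjusted p = 1.27e-05 and 8.19e-06). The other gene that fell with GSK2830371 was Cxcl9, at 77.7 to 504 normalised reads in controls, 6.05 to 222 with DMSO and 3.94 to 71.9 with GSK2830371. The call of Nos2 with DMSO was lost among females (limma adjusted p = 0.0523). Gene by gene between the arms, limma called 0 of the 8 alternative and 0 of the 9 classical activation genes, and DESeq2 called Il1b. The difference between the arms in these counts was not tested.

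**Figure D4:**
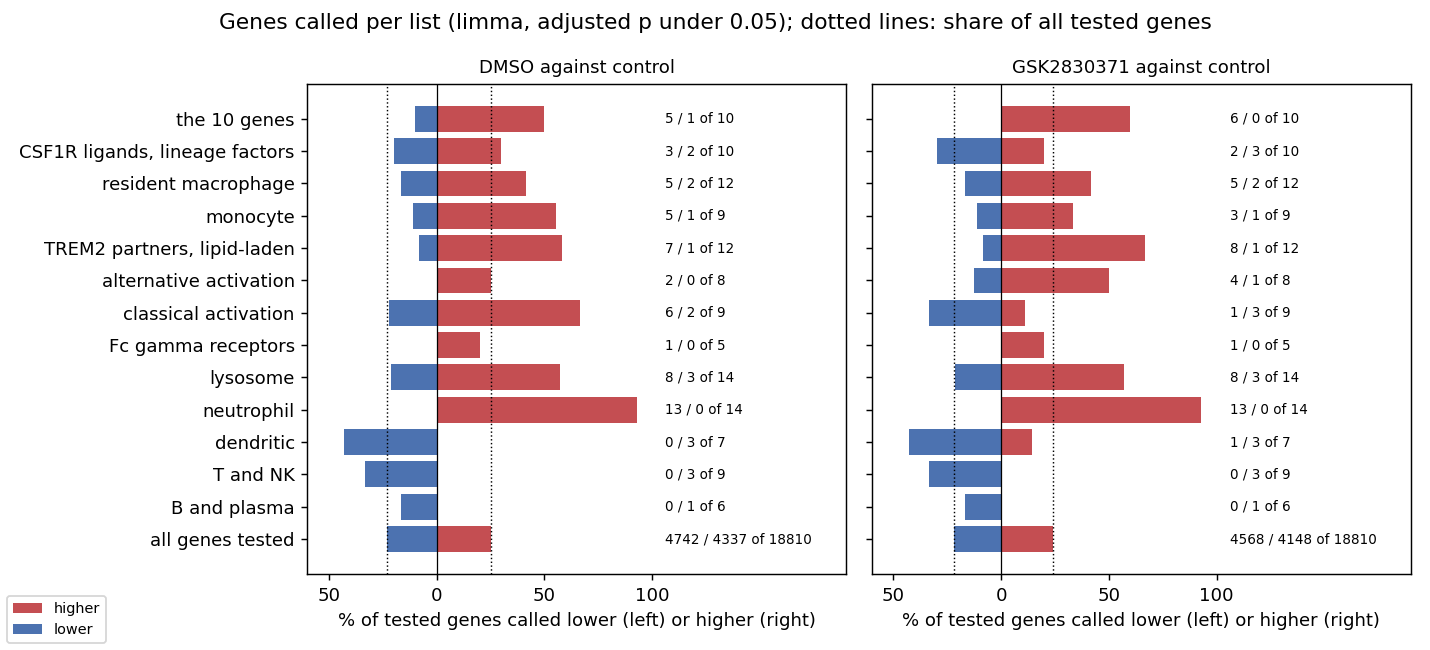
Percent of tested genes called higher (right, red) or lower (left, blue) in each gene list, with the counts beside the bars (higher / lower of tested), for DMSO and GSK2830371 against control; dotted lines mark all genes tested. The 10 macrophage genes gave 5 higher and 1 lower with DMSO and 6 and 0 with GSK2830371, and the neutrophil list 13 of 14 higher in both.

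Close paralogs of the 10 genes were read beside them. Of 5 tested, 4 rose in each arm. Chit1 and Trem1 held at most 2.78 and 7.06 normalised reads in controls. They passed the filter on low counts through the i-TERTci groups, so that only a rise could be called for them. Lyz1, Chil4 and Cd209a did not pass it. Cd209a held 7.42 to 31.1 normalised reads in controls, 0 to 16.6 with DMSO and 0 to 0.986 with GSK2830371. Trem1, an activating receptor of neutrophils and monocytes, rose by 6.02 (SE 0.66) and by 5.51 (SE 0.66), with limma adjusted p = 6.76e-06 and 1.54e-05. The chitinase family genes Chil1 and Chit1 rose by 3.48 and 3.75 with DMSO (limma adjusted p = 0.00201 and 0.000469) and by 3.23 and 4.17 with GSK2830371 (limma adjusted p = 0.0036 and 0.000226). Treml2 rose by 2.31 and by 1.51 (limma adjusted p = 0.00341 and 0.0378). The call of Treml2 with GSK2830371 was lost without control mouse 2, 3 or 4 or GSK2830371 mouse 1, 3 or 5 (limma adjusted p = 0.0504 to 0.126), and both Treml2 calls and that of Chil1 with DMSO were lost among females (limma adjusted p = 0.119, 0.13 and 0.0779). Pmel, the pigment cell relative of Gpnmb, changed by 0.03 and 0.70 (limma adjusted p = 0.959 and 0.128).

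Markers of other leukocytes went in different directions, and those of neutrophils rose. Of 14 neutrophil markers, 13 rose in each arm, and their summed level was 185 to 288 normalised reads in controls, with Ly6g and Mpo at 0 in all 4. Ly6g and Mpo passed the filter through the i-TERTci groups, so that only a rise could be called for them. The summed level was 31950, 1167, 18760, 10715 and 1742 with DMSO and 23416, 1136, 16054, 630 and 3725 with GSK2830371. The females of the DMSO arm, mice 2 and 5, had the lowest sums of that arm. Chil3 followed the same order of mice within the GSK2830371 arm and, apart from mice 2 and 5, within the DMSO arm. Lyz2 and Mrc1 did not: Lyz2 was highest in DMSO mouse 2 and GSK2830371 mouse 2, which stood at 1167 and 1136 of summed neutrophil reads. In those libraries Lyz2, Fcgr3 and Chil3 were at 13058, 1118 and 628 reads and at 14170, 1303 and 496, all above every control. The neutrophil sums of these 2 libraries were above every control as well. The part of neutrophils in the changes of Lyz2, Fcgr3 and Chil3 was not tested.

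**Figure D5:**
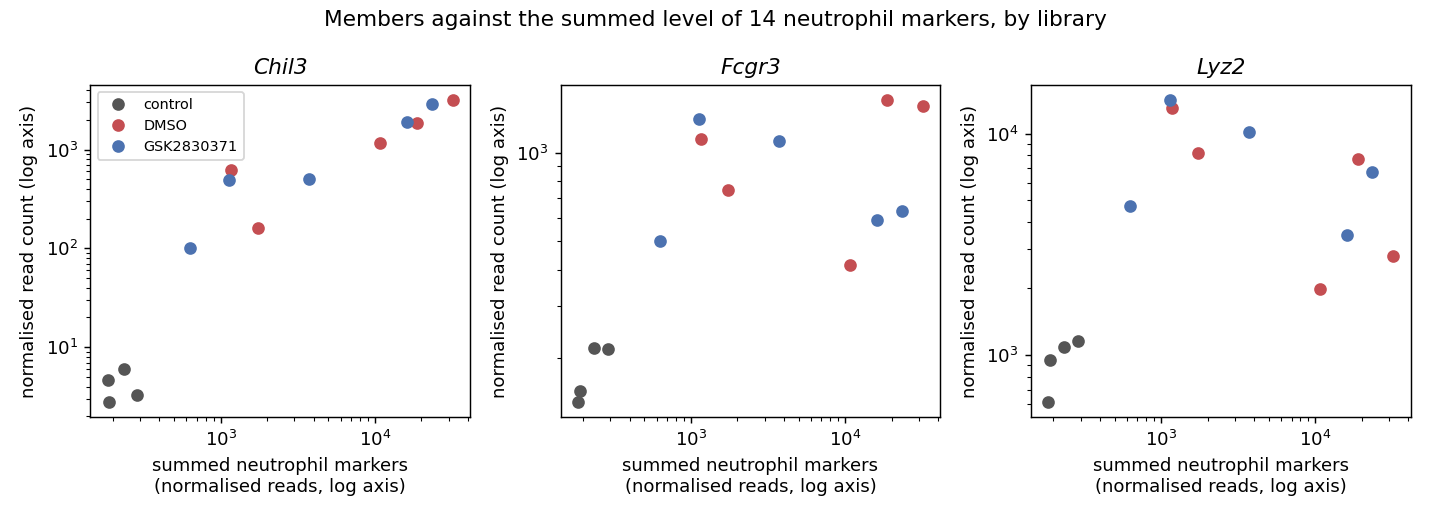
Normalised read count (log axis) of Chil3, Fcgr3 and Lyz2 against the summed level of 14 neutrophil markers (log axis) in each of the 14 libraries, coloured by group. Chil3 is highest where the sum is highest (3172 at 31950), while the highest Lyz2 value (14170) lies at a sum of 1136.

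The sum of 5 genes shared by all leukocytes was 1907 to 3411 normalised reads in controls, 3986 to 7149 with DMSO and 3689 to 6058 with GSK2830371, and 4 of 5 rose in each arm. Ptprc (CD45) rose by 1.16 and by 0.90 (limma adjusted p = 0.00328 and 0.0161), the latter lost without control mouse 2 or 4 (limma adjusted p = 0.0504 and 0.0573) and at 31 days or fewer (limma adjusted p = 0.111). Of 7 dendritic cell markers, Fscn1, Xcr1 and Clec9a fell in each arm and Flt3 rose with GSK2830371. Their sum was 1639 to 2799 in controls, 601 to 1502 with DMSO and 842 to 1201 with GSK2830371, and most of the control sum is Fscn1 (mean of 1458 in controls, 435 and 350.2 in the arms), while Zbtb46 held a mean of 493, 510.1 and 535. The call of Flt3 was lost among females (limma adjusted p = 0.0653). Of 9 T and natural killer cell markers 3 fell and 0 rose in each arm. Over all genes, 23.1% fell and 25.2% rose with DMSO, and 22.1% and 24.3% with GSK2830371. Of 6 B and plasma cell markers, Mzb1 fell with DMSO (limma adjusted p = 0.038) and Cd79b with GSK2830371 (limma adjusted p = 0.0388). The call of Mzb1 was lost in edgeR (adjusted p = 0.0911), DESeq2 (adjusted p = 0.0645) and without control mouse 1, 2 or 4 or DMSO mouse 1 or 4 (limma adjusted p = 0.0626 to 0.115), and that of Cd79b in edgeR (adjusted p = 0.0512) and without any 1 control or GSK2830371 mouse 1, 3 or 4 (limma adjusted p = 0.0528 to 0.106). With sex as a covariate neither held (limma adjusted p = 0.241 and 0.126), nor among females (limma adjusted p = 0.297 and 0.0529). Prg2, an eosinophil granule protein and the only mast cell, basophil or eosinophil marker tested, held at most 1.10 normalised reads in controls and at most 76.2 in any i-TERTci library. Their part in the macrophage results was not tested. Of 10 kidney markers, Lrp2, Slc34a1 and Slc12a3 fell in each arm and Cdh16 rose with GSK2830371, beside the same shares over all genes. The calls of Lrp2 were lost among females (limma adjusted p = 0.179 and 0.161), with sex as a covariate (limma adjusted p = 0.114 and 0.0542) and without control mouse 4 (limma adjusted p = 0.054 and 0.052), and in edgeR with GSK2830371 (adjusted p = 0.0661). Slc34a1, the phosphate carrier of the proximal tubule, fell by 2.14 and by 2.17 (limma adjusted p = 0.00202 and 0.00195).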

How the data were processed

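Total RNA of 14 whole kidneys, 1 library per mouse, was sequenced. Per the submitters' processing notes, the mm10 build was used with STAR, DESeq2, FastQC and Trimmomatic. The counter, its gene models and its strandedness were not given in the sources used here. Both deposited tables hold signal per gene: in each table of 9 libraries (the same 4 controls in both) the authors scaled each library's reads by a factor of its own. Read counts came back whole within 0.001 for 100% of values, over 24221 and 24164 genes, and the controls' reads matched between the tables (0 mismatches). Genes listed in a single table (539 and 482) were not used.

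Reads of 23682 genes were scaled over the 14 libraries by the median of ratios and filtered with filterByExpr. One limma 3.58.1 fit (R 4.3.3; trend and robust) by group on log2(value + 1) gave 3 comparisons with Benjamini-Hochberg adjustment over 18810 genes at 0.05. It was tested first on simulated data in which the spread between libraries was capped, so genes of wide spread were not covered. Alternatives were edgeR 4.0.16, DESeq2 1.42.0 and voom on the whole reads, TMM scaling, pseudocounts of 0.5 and 5, no filter, fits of the groups compared only, the replicate number as a block, libraries at 31 days or fewer, females only, sex as a covariate (female: over 1000 Xist reads), the authors' scaling, and leaving out each library. Positions and transcript lengths came from GENCODE M21, promoters from RefSeq. Named genes were the 10 members, from each list the gene listed first and that with the smallest p in each comparison, the 3 genes most like each member, and close paralogs. Members and lists were chosen with earlier results of these data known.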

Additional observations from a re-analysis of the deposited data

How the results depend on the processing

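The number of macrophage genes called ranged from 5 to 9 with DMSO and from 6 to 8 with GSK2830371 over the alternatives, and from 5 to 7 in both when 1 library was left out. It was 0 for GSK2830371 against DMSO in each of these analyses. Lyz2, Fcgr3, Mrc1, Chil3 and Gpnmb passed against control in all of them; Chil3 ranged from 5.99 to 8.37 with DMSO and from 6.23 to 8.12 with GSK2830371 over the alternatives. Over all genes, the alternatives called from 6124 of 19321 (females) to 10253 of 23682 (no filter) with DMSO. With GSK2830371 they called from 7244 of 19515 (31 days or fewer) to 9867 of 23682 (no filter). Without 1 library the calls ranged from 7645 to 9108 with DMSO and from 7254 to 9083 with GSK2830371. For GSK2830371 against DMSO there were 0 calls over all genes, 1 in DESeq2 and 2 among females. No scaling moved the median of all genes by over 0.1.

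Signs turned only for changes that the limma fit reported here did not call; of these, Cd3e (-1.59, limma adjusted p = 0.0252) and Cd79b (-0.95, limma adjusted p = 0.0483) passed for DMSO against control without DMSO mouse 5. Between the i-TERTci arms, Adgre1 was at -0.19 in both edgeR and DESeq2, -0.074 at 31 days or fewer, -1.13 among females, -0.029 with sex as a covariate, and -0.45 to 0.32 without 1 library. Cd68 was at -0.018, -0.60 and -0.036 in the latter 3 settings and -0.32 to 0.40 without 1 library. Chil3 turned to 0.48 at 31 days or fewer, 0.53 among females and ranged from -1.09 to 0.22 without 1 library. Among females Csf1r was at -0.35, Lyz2 at -0.73, Mrc1 at -0.25, Arg1 at 0.32, Trem2 at -1.42 and Plin2 at 0.11. Without 1 library Arg1 ranged from -1.10 to 0.17 and Trem2 from -0.15 to 0.76. At 31 days or fewer Prg2 was at 0.99 between the arms and Arg1 at -0.051 for GSK2830371 against control. For DMSO against control, Cd3e was at 0.18, Cd79a at 0.22, Cd79b at 0.070 and Irf8 at -0.0020 among females, Pmel at -0.0051 with the replicate block and -0.30 to 0.24 without 1 library, and Spi1 at -0.34 to 0.026 without 1 library. The cause was not tested. The female comparison has 2 DMSO mice, and that at 31 days or fewer has GSK2830371 mice 1 and 5 only, neither taken as female.

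The labels tie no mouse to another by replicate number, and the correlation of same-numbered mice's deviations ran from -0.0605 to 0.101 between the controls and either arm. Between the arms it was 0.335, 0.265 and 0.126 for numbers 1, 2 and 5, and -0.0314 and 0.0378 for numbers 3 and 4, so the numbers were not taken as pairs. With the replicate block, 7 macrophage genes were called with DMSO, Trem2 added (1.20, limma adjusted p = 0.0408), and 7 with GSK2830371, Csf1r added (-0.69, limma adjusted p = 0.0429). Over all genes it called 9589, 9248 and 0. Arg1 had at most 37.1 normalised reads in any library, with means of 15.6 with DMSO and 13.3 with GSK2830371. Whether its low counts hid a change was not tested.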
